A study of Mus musculus with 8 samples.

Results

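The complement genes followed here were the C1q chains C1qa, C1qb and C1qc, the pathway components C2, C3 and C4b, the alternative pathway proteins Cfb and Cfp, and the regulator Cfi, 9 genes chosen by name as components and regulators of complement. Of these, 8 had a probe set that carries their symbol alone, each of them 1 probe set, out of 19938 genes with such a probe set on the array. C3 had none and was not analysed here. The choice of the 9 genes was made with earlier results of these data known. A probe set counted as measured if its intensity exceeded the 40th percentile of the array on 4 or more of the 8 arrays, and 7 of the 9 genes passed, each on 8 of 8 arrays. Cfi lay below that line on every array.

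The study compared the uterus of pregnant and pseudopregnant C57BL/6 mice (an inbred strain) on day 3 at 22 h with the mating night as day 0. Pregnant uteri (4 arrays) came from females mated with stud males, showed no blue dye site, which would mark an attached embryo, and gave healthy-looking blastocysts on flushing. Pseudopregnant uteri (4 arrays) came from females mated with vasectomised males and held no embryos. The presence of embryos and the kind of male differed together and cannot be told apart. The RNA was total RNA of the uterus, so more cells of a type and more RNA per cell cannot be told apart either. Median intensities of the 8 arrays lay between 55.2 and 56.3, correlations between arrays of a group between 0.992 and 0.996, and the RNA integrity numbers of the series between 6.9 and 8.7. The number of arrays limits the precision of every value. Of the listed markers of uterine stroma, smooth muscle, epithelium and endothelium, 30 had a probe set and all 30 were measured.

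Complement is a cascade of serum and tissue proteins that tags targets for uptake and can puncture membranes. The classical pathway starts with C1q, a hexamer of units each built from an A, a B and a C chain, which is made mainly by macrophages and dendritic cells rather than by the liver. C1q activates the proteases C1r and C1s, which cleave C4 and C2 into a convertase that splits C3. The alternative pathway amplifies this step with factor B (Cfb) and properdin (Cfp), and factor I (Cfi) cuts and inactivates the active fragments of C3 and C4. The small fragments C3a and C5a act on receptors of leukocytes. In the uterus, complement components are made by epithelium, stroma and resident leukocytes, and membrane regulators protect host cells and embryos from attack.

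The genes for the C1q chains lie side by side on chromosome 4 in the RefSeq annotation of GRCm38.p6, with C1qc between C1qb and C1qa and no other protein-coding gene between them. Cfb and C2 are likewise neighbours on chromosome 17, where C4b also lies. The promoters of C1qb and C1qc are shown because these are the members that rose together, and that of Cfp, on chromosome X, as a member whose level did not pass the test. Each sequence is the RefSeq promoter of GRCm38.p6, 250 bases before to 50 after the start of the gene, read 5′ to 3′ on the minus strand of the genome; capitals mark matches to the core bound by the myeloid factor PU.1, GAGGAA, on either strand.

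C1qb, chr4:136886151-136886450: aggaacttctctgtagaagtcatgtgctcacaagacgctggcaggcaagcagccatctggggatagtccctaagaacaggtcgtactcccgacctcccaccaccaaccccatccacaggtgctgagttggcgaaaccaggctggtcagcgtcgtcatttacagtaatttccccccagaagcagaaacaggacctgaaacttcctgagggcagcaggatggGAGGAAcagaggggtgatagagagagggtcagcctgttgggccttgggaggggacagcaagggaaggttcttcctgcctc
C1qc, chr4:136892865-136893164: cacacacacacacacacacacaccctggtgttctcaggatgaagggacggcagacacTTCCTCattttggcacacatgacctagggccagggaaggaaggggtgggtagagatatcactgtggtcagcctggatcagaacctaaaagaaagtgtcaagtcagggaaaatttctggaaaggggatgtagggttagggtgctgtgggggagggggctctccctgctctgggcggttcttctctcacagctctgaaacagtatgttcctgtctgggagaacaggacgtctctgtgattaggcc
Cfp, chrX:20931506-20931805: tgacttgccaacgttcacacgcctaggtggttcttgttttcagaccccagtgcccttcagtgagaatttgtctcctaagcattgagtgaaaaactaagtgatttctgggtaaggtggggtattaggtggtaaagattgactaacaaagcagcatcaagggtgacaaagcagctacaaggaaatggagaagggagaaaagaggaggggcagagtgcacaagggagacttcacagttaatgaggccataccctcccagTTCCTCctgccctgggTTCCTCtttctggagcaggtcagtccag

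The PU.1 core occurred once in the C1qb promoter, at 30 bases before the start, once in that of C1qc, on the opposite strand at 193 bases before the start, and 2 times in that of Cfp, just after the start. Of the 32851 promoters of the same length in the table, 28.3% held at least 1 such match, so its presence is common. Matches to the core of interferon regulatory factor sites (GAAANNGAA, in 8.56% of promoters), a gamma-activated site (TTCNNNGAA, 8.3%), a MAF site (TGCTGAC, 4.67%), an AP-1 site (TGANTCA, 7.81%) and the E-box CACGTG (7.15%) were searched on both strands, and none lay in these 3 windows. A match is a stretch of letters and not a measured binding site. Promoters of 4 of the 9 genes stand in the table, the 3 shown and C3.

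Of the 7 measured members, 2 rose in the pregnant uterus, C1qb and C1qc, and 0 fell (limma, adjusted p under 0.05; at an unadjusted p under 0.05 the counts were also 2 and 0). Over all 17494 measured probe sets 1.82% were called, 1.41% that rose and 0.412% that fell. The share of all probe sets at an unadjusted p under 0.05 was not counted, so the unadjusted counts given have no background here. The members were chosen with earlier results of these data known, so they are not an independent list. The 2 members that rose were also the only 2 of the 7 whose groups did not overlap, a pattern found among 9.23% of all measured probe sets in the upward direction and 5.38% in the downward direction. The median log2 difference of the 7 members was 0.054, against 0.0019 over all measured probe sets.

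C1qb encodes the B chain of C1q. Its log2 intensities on the pregnant arrays were 8.71, 8.96, 8.92 and 8.85 in replicates 1 to 4, and on the pseudopregnant arrays 8.38, 8.30, 8.19 and 8.33. Every pregnant value exceeded every pseudopregnant value, and pregnant replicate 1 was the nearest to the other group. The means were 8.86 ± 0.11 and 8.30 ± 0.079 (SD, n = 4 each), which gives a log2 difference of 0.56 ± 0.068 (SE) and a fold of 1.48 with a 95% interval of 1.33 to 1.64 (limma adjusted p = 0.012). On the linear scale the mean intensity was 466 ± 34.2 against 316 ± 17.1 (SD, n = 4 each).

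C1qc encodes the C chain. The pregnant arrays gave log2 intensities of 6.85, 7.18, 7.17 and 7.24, and the pseudopregnant arrays 6.68, 6.63, 6.60 and 6.72. The groups did not overlap, but pregnant replicate 1 stood only slightly above the highest pseudopregnant array and well below the other 3 pregnant arrays. The difference was 0.45 ± 0.084 (SE), a fold of 1.36 with a 95% interval of 1.20 to 1.55 (limma adjusted p = 0.036). The call of C1qc held under 8 of 17 alternative settings and the call of C1qb under 17 of 17. Leaving out any 1 array other than pregnant replicate 1 ended the call of C1qc, with adjusted p between 0.0501 and 0.0923 and differences between 0.40 and 0.47; without pregnant replicate 1 its difference was 0.53 (adjusted p = 0.0145).

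C1qa encodes the A chain, which is joined to the B chain in the assembled protein. Its log2 intensities were 7.10, 7.05, 7.13 and 7.29 on the pregnant arrays and 7.10, 7.14, 7.0 and 6.98 on the pseudopregnant arrays. The groups overlapped, and pregnant replicate 4 was the highest array. The difference was 0.08 ± 0.067 (SE, limma adjusted p = 0.46), with a 95% interval of the fold from 0.957 to 1.18, which does not reach the lower bound of the interval for C1qb. The C1qa probe set ranked between the 72.3rd and the 76.7th percentile of its arrays, so it was not dim.

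Because the chains are parts of 1 protein, their log2 values were also set against each other within each array, a comparison chosen after their values were seen. Only the change of such a difference between groups can be read, since probe sets differ in brightness. Each chain had 1 probe set, and whether these probe sets respond alike to a change in RNA was not tested. C1qb minus C1qa was 1.62, 1.91, 1.79 and 1.56 on the pregnant arrays and 1.28, 1.15, 1.19 and 1.35 on the pseudopregnant arrays, with no overlap. The groups differed by 0.48 (exact permutation p = 0.029, two-sided, the smallest that the 70 arrangements allow, and 0.043 adjusted over the 3 pairs of chains). C1qc minus C1qa was -0.25, 0.13, 0.03 and -0.05 against -0.42, -0.52, -0.40 and -0.26, again higher on every pregnant array, though pregnant replicate 1 lay next to pseudopregnant replicate 4. The groups differed by 0.36 (exact permutation p = 0.029, adjusted 0.043). C1qb minus C1qc differed by 0.11 with overlapping groups (exact permutation p = 0.086, adjusted 0.086). Without single arrays these differences stayed between 0.41 and 0.53 for B against A and between 0.31 and 0.43 for C against A. With 7 arrays 35 arrangements remain, so p moves in coarse steps. Both kept an adjusted exact permutation p of 0.029 or 0.043 without pregnant replicate 1, 3 or 4, and both had 0.086 without pregnant replicate 2 or any of the 4 pseudopregnant arrays. Leaving out an array cannot make separated groups overlap, so both stayed without overlap each time. With such coarse steps and the adjustment over 3 pairs, the p of 0.086 cannot decide whether the shifts rest on single arrays. C1qb minus C1qc reached 0.16 (adjusted exact permutation p = 0.029) without pregnant replicate 4.

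**Figure D1:**
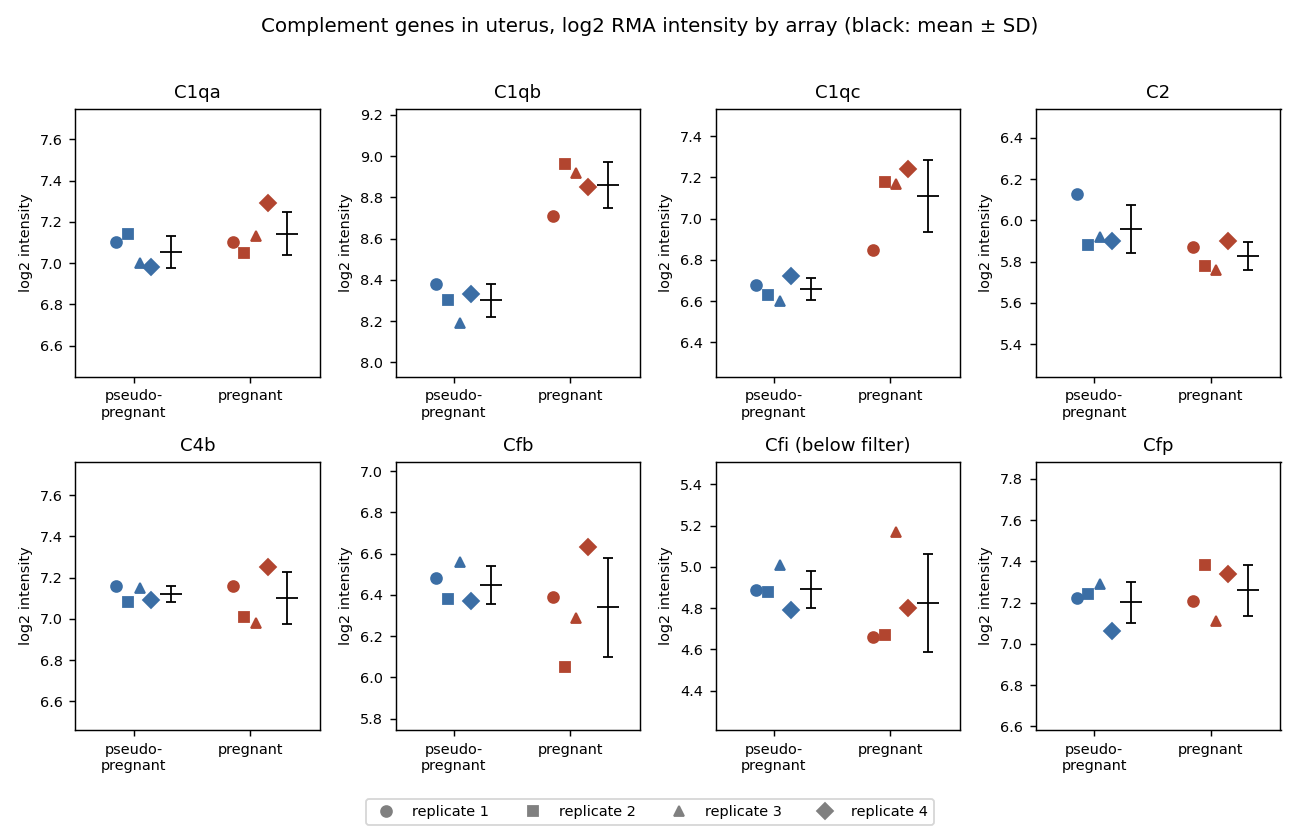
Log2 intensity (vertical axes, each spanning the same range) of the 8 complement genes with a probe set on the 4 pseudopregnant (blue) and 4 pregnant (red) arrays, with symbols for replicates and black bars for mean ± SD. For C1qb and C1qc all pregnant points lie above all pseudopregnant points, and for the other 6 genes the groups overlap.

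**Figure D2:**
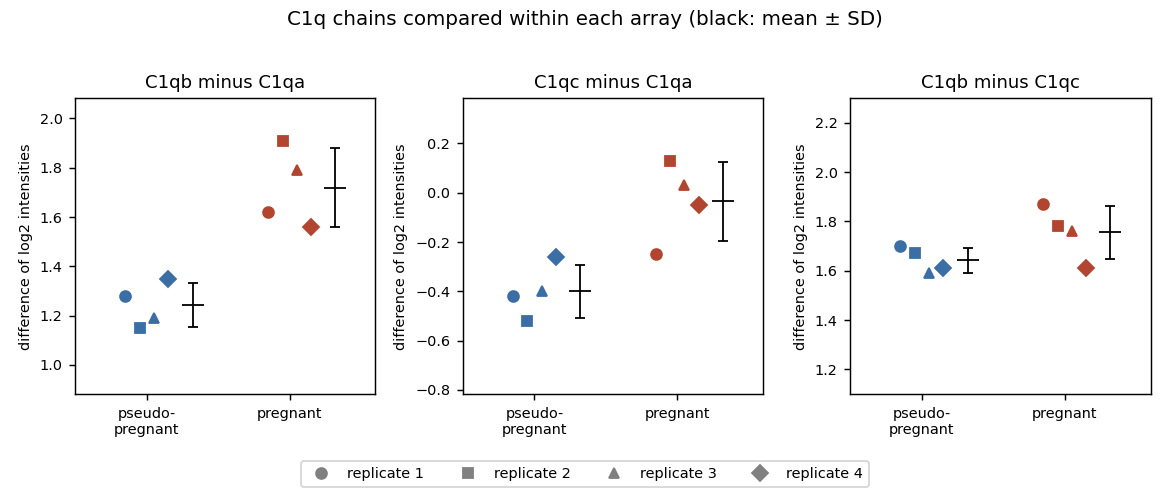
Difference between the log2 intensities of 2 C1q chains on the same array (vertical axes) in the pseudopregnant (blue) and pregnant (red) group, with black bars for mean ± SD. C1qb minus C1qa and C1qc minus C1qa are higher on all pregnant arrays, by 0.48 and 0.36 on average, and C1qb minus C1qc overlaps between the groups.

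The other classical components were close in the 2 groups. C2, the protease subunit of the classical convertase, had log2 intensities of 5.87, 5.78, 5.76 and 5.90 on the pregnant arrays and 6.13, 5.88, 5.92 and 5.90 on the pseudopregnant arrays. The highest value, that of pseudopregnant replicate 1, stood apart from the rest, and the other arrays overlapped. The difference was -0.13 ± 0.068 (SE, limma adjusted p = 0.27) and moved to -0.07 without that array. C4b, whose product is the other convertase subunit, had log2 intensities of 7.16, 7.01, 6.98 and 7.25 against 7.16, 7.08, 7.15 and 7.09, with the pregnant arrays spread on both sides of the pseudopregnant ones. The difference of -0.02 ± 0.067 (adjusted p = 0.89) had a 95% interval of the fold from 0.89 to 1.10. C4a, a close copy of C4b, may share probes with it, which these values cannot separate.

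Among the alternative pathway genes, Cfb, the protease subunit of the amplifying convertase, had log2 intensities of 6.39, 6.05, 6.29 and 6.63 on the pregnant arrays and 6.48, 6.38, 6.56 and 6.37 on the pseudopregnant arrays. The pregnant group was the more spread one, with both the lowest (replicate 2) and the highest (replicate 4) array, an SD of 0.24 against 0.09. The difference was -0.11 ± 0.11 (SE, limma adjusted p = 0.57), between -0.21 and -0.01 without single arrays. Cfp encodes properdin, which stabilises that convertase and is made by myeloid cells. Its log2 intensities were 7.21, 7.38, 7.11 and 7.34 against 7.22, 7.24, 7.29 and 7.06, mixed between groups. The difference was 0.05 ± 0.076 (adjusted p = 0.69), with a 95% interval of the fold from 0.924 to 1.17. Cfi, the only pure regulator among the members, had log2 intensities of 4.66, 4.67, 5.17 and 4.80 against 4.89, 4.88, 5.01 and 4.79, all below the 40th percentile of the arrays, 5.23 to 5.32. It was not tested with the others. Without the filter its difference was -0.07 ± 0.11 (SE, limma adjusted p = 0.77).

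Within the groups, some members varied together and others did not. With the group means removed, the Pearson correlation over the 8 arrays was 0.77 between C1qb and C1qc, 0.04 between C1qb and C1qa and 0.29 between C1qc and C1qa. C4b and Cfb had 0.87, C4b and C2 0.68, and C1qb and C4b -0.53. These describe 8 arrays that share a normalization and carry no test. By the same measure the named genes most like the mean of the C1q chains were Arf1 (0.973), Saysd1 (0.96) and Nr2c2 (0.955). Those most like C4b were Uqcrq (0.993), Lrfn2 (0.989) and Tysnd1 (0.977), and those most like Cfb were Spsb4 (0.982), Tmem88 (0.979) and Sin3b (0.974). C2 was closest to 1110002L01Rik (0.983), Dhx16 (0.98) and Slc39a5 (0.979), and Cfp to Gtf3a (0.955), Haus4 (0.955) and Emx2 (0.948). They were picked as the highest among 13039 genes, and 0 of these 15 genes passed the limma test between groups.

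The remaining genes of complement were taken from a list of 46, of which 43 had a probe set and 24 were measured. Of these 24, 6 rose and 0 fell (limma; at an unadjusted p under 0.05, 8 and 1), and all 6 stood in the group of receptors. Over all measured probe sets 1.41% rose and 0.412% fell. Among the 16 measured components and regulators outside that group, 0 passed (limma; at an unadjusted p under 0.05, 2 higher and 1 lower), with a median log2 difference of 0.025. The proteases that work with C1q gave small differences, C1ra -0.05 (limma adjusted p = 0.64), C1s1 0.05 (0.71) and C1s2 0.03 (0.79), with 95% intervals of the fold that end at 1.06, 1.15 and 1.11. C1s1 and C1s2 are close copies that may share probes.

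Of the lectin pathway, which recognises sugars in place of antibodies, 3 of 8 genes were measured. The protease gene Masp1 had 5.54, 5.54, 5.59 and 5.57 on the pregnant and 5.72, 5.74, 5.85 and 5.92 on the pseudopregnant arrays. It was lower on every pregnant array, with a difference of -0.25 ± 0.058 (SE), and just missed the threshold (limma adjusted p = 0.058). Fcnb (0.07, 0.66) and Colec11 (-0.07, 0.58) overlapped. Of the 7 genes of the terminal pathway, which form the membrane pore, 0 passed the intensity filter. C7 among them, named after its values were seen, had 4.97, 5.37, 4.91 and 4.88 on the pregnant and 4.74, 4.63, 4.51 and 4.75 on the pseudopregnant arrays, without overlap but dim and not tested.

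Regulators were measured for 9 of 15 listed genes other than Cfi, and 0 passed. The fluid-phase inhibitor of C1r and C1s, Serping1, differed by -0.01 ± 0.064 (SE, limma adjusted p = 0.93), clusterin (Clu) by 0.15 (0.37) and vitronectin (Vtn) by 0.09 (0.44). The membrane regulator Cd55, which speeds the decay of convertases, had 6.99, 7.81, 7.28 and 7.18 on the pregnant and 6.83, 6.75, 7.13 and 6.88 on the pseudopregnant arrays. Pregnant replicate 2 was the highest and the groups overlapped, with a difference of 0.42 ± 0.16 (adjusted p = 0.15), which was 0.25 without that array. Cr1l, the rodent regulator also called Crry, was 6.35, 6.35, 6.31 and 6.37 against 6.05, 6.17, 6.26 and 6.30. It was higher on every pregnant array by a small amount, 0.15 ± 0.062, and did not pass (adjusted p = 0.18). Cd59a, which blocks the membrane pore, differed by 0.11 (0.44).

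Of the 8 measured genes of the receptor list, 6 rose, with a median log2 difference of 0.41 over the 8. This counts genes and not receptors, since Itgam, Itgax and Itgb2 are chains of shared receptors and C1qbp is mainly a mitochondrial protein. C3ar1, the receptor of the fragment C3a, had 7.67, 7.89, 7.69 and 7.89 on the pregnant and 6.84, 6.87, 7.12 and 7.20 on the pseudopregnant arrays. The groups were far apart, and the difference of 0.78 ± 0.095 (SE), a fold of 1.72 with a 95% interval of 1.48 to 1.99, was the largest of the measured complement genes (limma adjusted p = 0.012). It held under 17 of 17 alternatives. C5ar1, the receptor of C5a, had 5.73, 5.88, 5.76 and 6.03 against 5.44, 5.29, 5.15 and 5.50. It rose by 0.50 ± 0.092 (adjusted p = 0.034), but 1 pseudopregnant array lay under the 40th percentile, so its size is not exact. The second C5a receptor, C5ar2, overlapped between the groups and differed by 0.04 ± 0.073 (adjusted p = 0.77).

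The integrin receptors for C3 fragments, made of the shared chain Itgb2 with Itgam or Itgax, also rose. Itgam had 6.08, 6.05, 6.10 and 6.20 against 5.76, 5.71, 5.72 and 5.83, a tight separation with a difference of 0.35 ± 0.054 (SE, limma adjusted p = 0.024). Itgb2 rose by 0.46 ± 0.074 (adjusted p = 0.026) and Itgax by 0.57 ± 0.11 (adjusted p = 0.035), both without overlap. C1qbp, named for its binding of C1q but mainly a mitochondrial protein, rose by 0.36 ± 0.067 (adjusted p = 0.036). Cd93, first described as a C1q receptor and abundant on endothelium, differed by -0.09 ± 0.052 (adjusted p = 0.32). Over the alternatives, Itgb2 kept its call under 12 of 17, Itgam under 11 of 17, C1qbp under 9 of 17, Itgax under 8 of 17 and C5ar1 under 9 of 16. Without the intensity filter, C3ar1 alone of the 6 passed; without single arrays the count lay between 1 (without pseudopregnant replicate 1, 2 or 3) and 6 (without pseudopregnant replicate 4). It was 2 without pregnant replicate 1, 2 or 4 and 4 without pregnant replicate 3.

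**Figure D3:**
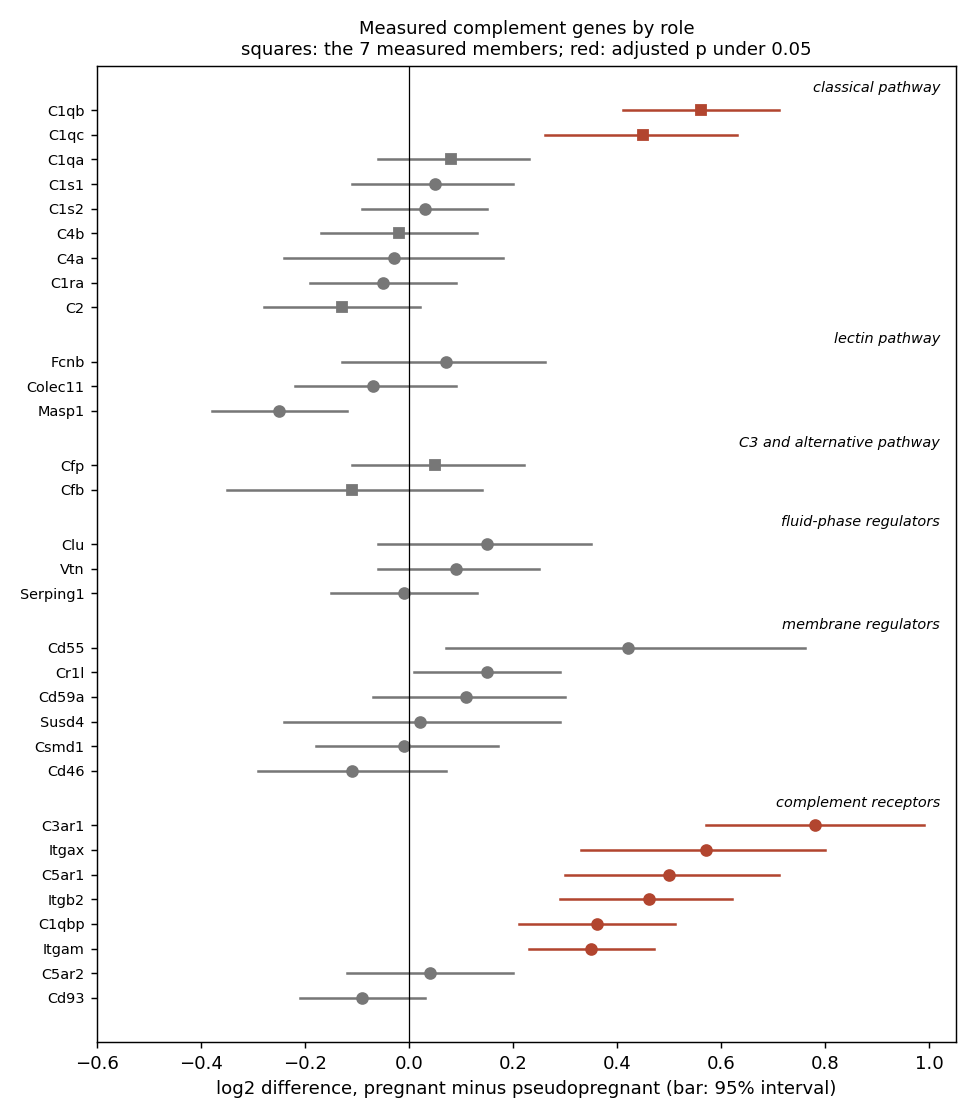
Log2 difference between pregnant and pseudopregnant uterus (horizontal axis) with its 95% interval for the 31 measured complement genes, grouped by role; squares are the 7 measured members and red marks an adjusted p under 0.05. C1qb, C1qc and 6 genes of the receptor list lie to the right of 0, from 0.35 for Itgam to 0.78 for C3ar1, and the intervals of most other genes cross 0.

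Markers of macrophages moved in the same direction as C1qb, C1qc and the receptors. Of 13 measured markers, 6 rose and 0 fell (limma, adjusted p under 0.05), 12 had differences above 0, and the median difference was 0.35. Over all 17494 measured probe sets 1.41% rose, and 8846 had differences above 0. Ms4a7, a membrane protein of macrophages, rose by 0.69 ± 0.077 (SE, adjusted p = 0.012) and the surface receptor Adgre1 by 0.62 ± 0.099 (adjusted p = 0.025). The summed intensity of the 15 markers with a probe set lay between 2388 and 3026 on the pregnant and between 1880 and 2156 on the pseudopregnant arrays. Cd163 and Aif1 lay below the 40th percentile on all arrays, and Cd14 differed by -0.27 (adjusted p = 0.24). Also not called were Lyz2 (0.57, limma adjusted p = 0.071), Fcer1g (0.33, 0.12), Csf1r (0.2, 0.19), Fcgr1 (0.11, 0.29), Mertk (0.24, 0.3) and Cx3cr1 (0.13, 0.32). C1qa (0.08) and Cfp (0.05), which macrophages also express, did not pass the test. The part of the macrophage markers in the rise of C1qb and C1qc was not tested. The count of macrophage markers called was 1 without the intensity filter and 3 with a repeated quantile normalization or cyclic loess. It was 2 in the fit with a replicate block and 1 to 3 without single arrays.

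The members with other known sources, among them epithelium and liver, were set beside the markers of those cells. Of 9 neutrophil markers 0 passed the intensity filter. Without overlap, Retnlg (0.76) and S100a9 (0.18) were higher and Ngp (-0.24) was lower on the pregnant arrays. These 3 were dim and not tested. Of 8 measured epithelial markers 0 passed (limma; at an unadjusted p under 0.05, 0 higher and 3 lower), with a median of -0.21. Of 4 measured hepatocyte and serum protein markers 0 passed (1 higher at an unadjusted p under 0.05), and albumin lay below the filter. Interferon gamma is a known inducer of C2, C4b and Cfb in many cells. Of 9 measured genes responsive to it 0 passed (limma), with a median difference of -0.067. At an unadjusted p under 0.05, 1 was higher and 3 were lower. Irf8 was higher on every pregnant array (0.31, limma adjusted p = 0.052) and Cxcl10 was lower on every one (-0.41, 0.066). The part of interferon gamma in the levels of C2, C4b and Cfb was not tested. Of 7 measured endothelial markers 0 passed (limma; at an unadjusted p under 0.05, 0 higher and 3 lower), and all 7 had differences below 0, with a median of -0.13.

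Of 6 measured markers of NK and T cells, 3 rose and 0 fell (limma, adjusted p under 0.05), against 1.41% of all measured probe sets that rose. The median difference was 0.57. The measured T cell markers did not move with C1qb and C1qc. Cd3e differed by -0.15 (limma adjusted p = 0.30) and Cd3g by 0.04 (0.90), both with overlapping groups. The granule protease Gzmb rose by 1.51 ± 0.27 (SE, adjusted p = 0.031) and the NK cell receptor Ncr1 by 0.99 ± 0.18 (adjusted p = 0.034). Ncr1 exceeded the 40th percentile on 6 of 8 arrays, so its size is not exact. Eomes (0.72), which did not pass the test, exceeded it only on the 4 pregnant arrays. Its higher level there was built into its selection, and it enters the median of this list. The summed intensity of the 9 markers with a probe set lay between 481.9 and 773.5 on the pregnant and between 339.9 and 441.3 on the pseudopregnant arrays. Klrb1c, Cd4 and Cd8a did not pass the filter. Of 6 measured dendritic cell markers 1 rose, Clec9a. It passed the filter only through the 4 pregnant arrays, so its higher level there was built into its selection. Batf3 was lower on every pregnant array, with a difference of -0.17, and did not pass (limma adjusted p = 0.099). The part of these cells in the rise of C1qb and C1qc was not tested.

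**Figure D4:**
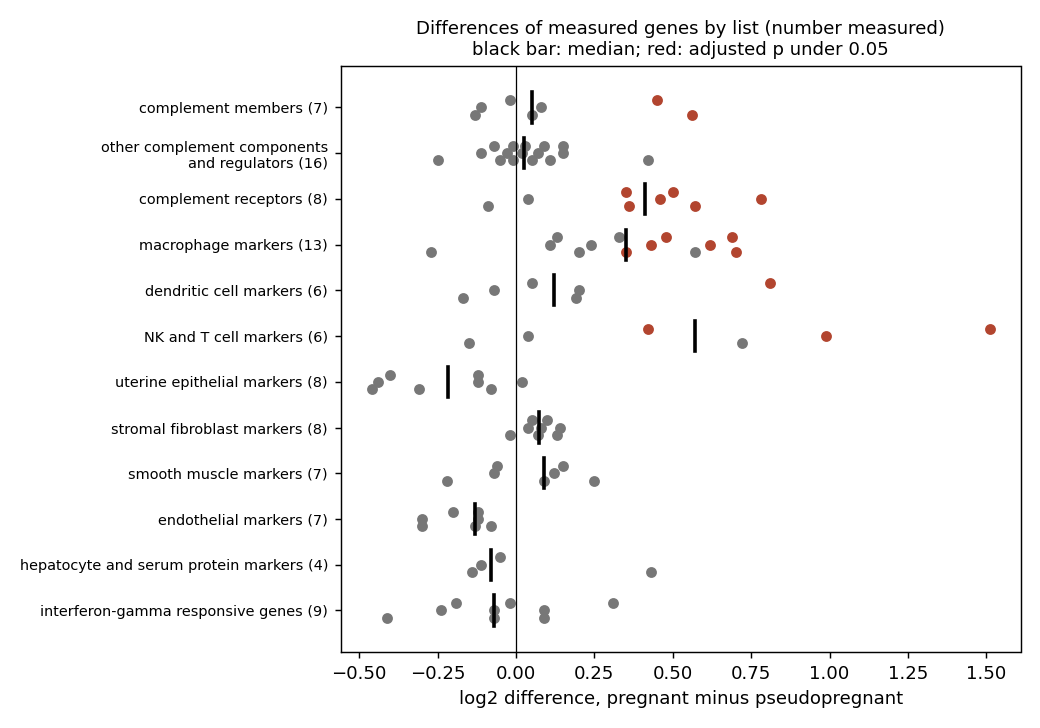
Log2 difference between pregnant and pseudopregnant uterus (horizontal axis) for every measured gene of the complement groups and marker lists, 1 point a gene, with the number measured in brackets, a black bar at the median and red points for an adjusted p under 0.05. The medians are 0.054 for the members, 0.025 for the other components and regulators, 0.41 for the receptors and 0.35 for the macrophage markers.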

How the data were processed

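The authors deposited 1 table of probe set intensities on a linear scale for 8 gene expression arrays, made with RMA per the submitters' processing notes (software, version and build of the annotation not given in the sources used here). The method equalises the arrays and compresses changes of dim probe sets. Here log2 of the deposited intensities was taken, 6612 array controls of 35556 probe sets were left out, and 17494 of the other 28944 passed the filter on intensity (above the array's 40th percentile on 4 or more of 8 arrays). Groups follow the sample titles, which name biological replicates. The test was limma's moderated test (version 3.58.1, R 4.3.3), two-sided, with Benjamini-Hochberg adjustment over all measured probe sets; an adjusted p under 0.05 is written as rose or fell. A gene was represented by its brightest probe set with its symbol alone. All 8 member probe sets matched RefSeq (GRCm38.p6) by gene number and symbol. The code was tested on simulated data. The members and gene lists were chosen with earlier results of these data known. Named were all members, every called complement gene, and up to 3 genes per role with the smallest p. The 2 genes with the smallest p were named for the macrophage, dendritic cell, NK and T cell and interferon gamma lists. No gene was named by this rule for the other lists. C5ar2, Cd93, C7, Cd163, Aif1, Cd14, Cd3e, Cd3g, Eomes, Klrb1c, Cd4, Cd8a, Retnlg, S100a9, Ngp and albumin were added after their values were seen. So were Csf1r, Fcgr1, Mertk, Lyz2, Cx3cr1 and Fcer1g. Alternatives covered normalization, filter, probe set choice, array weights, variance model, the replicate block and single arrays left out. Figures used matplotlib 3.10.9 in Python 3.11.15.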

Additional observations from a re-analysis of the deposited data

Results flagged for a closer look

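Within 64 gene and group combinations of the members and the measured complement genes, 3 held an array far from the other 3 of its group, where chance gives about 1 in 20. C2 was 6.13 (log2 intensity) in pseudopregnant replicate 1, against 5.88 to 5.92 on the other pseudopregnant arrays. C1s1 was 8.82 in pseudopregnant replicate 1, against 9.09 to 9.11. C1qbp was 8.14 in pregnant replicate 2, against 7.97 on each of the other pregnant arrays.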

How the results depend on the processing

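C1qb kept its direction and call under all 17 alternatives, with differences from 0.52 to 0.61, and so did C3ar1, from 0.72 to 0.84. C1qc kept its direction under all 17 but its call under only 8. It lost the call without the filter (0.45, adjusted p = 0.0656) and with the replicate block (0.45, adjusted p = 0.0542). It also lost the call without any single array other than pregnant replicate 1, and without single arrays its difference ran from 0.40 to 0.53. The members called were then 1 without the filter and 1 with the replicate block. Without single arrays the count was 2 without pregnant replicate 1 and 1 in every other case. The count of other complement genes called was 1 without the filter and 1 to 6 without single arrays. The count over all probe sets was 319, and 54 without the filter (28944 probe sets tested), 708 with an intensity trend and robust fit, 174 with the replicate block and 40 to 246 without single arrays. Of all calls 77.4% were higher, against 67.5% with a repeated quantile normalization (216 higher, 104 lower), 68.7% with cyclic loess (239 and 109) and 72.5% with array weights. C4b ran from -0.07 to 0.02 without single arrays, C1s1 from -0.02 to 0.07, C1s2 from -0.01 to 0.05, C5ar2 from -0.02 to 0.10 and Serping1 from -0.04 to 0.04 (0.02 with array weights), none of them past the threshold. C1qb minus C1qa stayed between 0.41 and 0.53 and C1qc minus C1qa between 0.31 and 0.43 over 16 alternatives, with adjusted p of 0.029 to 0.086 and 11 of 16 past the threshold for each. Those not past it each left out 1 array, where p moves in coarse steps and the groups still did not overlap. Masp1 passed with array weights (-0.26, adjusted p = 0.0419).

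Whether the replicate numbers pair the samples of the 2 groups is not known. Deviations of same-numbered arrays correlated by 0.24, 0.016, -0.10 and 0.044, and 3 of 8 arrays correlated best with their own number. With 4 arrays a group this check cannot exclude a pairing. Differences smaller than the intervals given were not detectable with 4 arrays a group, and dim genes such as Cfi and the terminal components have no interpretable difference.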
